A study of Mus musculus with 42 samples.

Results

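Expression and chromatin were followed at 6 genes of the fat cell programme, the nuclear receptor genes Pparg, Ppara and Ppard (peroxisome proliferator-activated receptors γ, α and δ) and the leucine zipper factor genes Cebpa, Cebpb and Cebpd (CCAAT/enhancer-binding proteins α, β and δ). They were chosen by symbol and not by a cutoff on measured values, though with earlier results of these data known. All 6 were among the 45317 gene entries of the count table. Of these entries 12529 passed the filter on low counts, among them 5 of the 6 genes, and Ppara did not pass. The cells were mouse (C57BL/6) mesenchymal stromal cells (MSCs) from the marrow of long bones, which can give rise to fat, bone and cartilage cells. They were bought at an early passage, used at passage 9 to 10 and kept undifferentiated.

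For RNA, cells were plated at 15000 per cm2, left for 24 h and then exposed for 48 h to the solvent dimethyl sulfoxide (DMSO, 0.1%), to rosiglitazone (ROSI, 100 nM), to AGN194204 (labelled 4204, 100 nM) or to tributyltin (TBT, 50 nM), with 6 libraries per treatment. ROSI is a drug that binds and activates PPARγ, 4204 is an agonist of the retinoid X receptors (RXRs), and TBT is an organotin pollutant known to bind both RXR and PPARγ. The histone marks H3K4me3, found at active promoters, and H3K27me3, laid down by Polycomb complexes at silent genes, were mapped by chromatin immunoprecipitation and sequencing (ChIP-seq) after DMSO or TBT, with 4 libraries of each mark per treatment and 1 input library per treatment. The series title asks whether RXR activation changes chromatin and commits such cells to fat. Nothing in the labels says that the libraries of a group came from separate cultures, so the p-values measure the spread between these libraries, which may be technical. The TBT dose was lower than those of ROSI and 4204, and each compound was used at 1 dose.

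PPARs bind DNA as heterodimers with an RXR and switch on genes of lipid uptake, storage and burning when fatty acids or drugs occupy them. In forming fat cells, C/EBPβ and C/EBPδ appear first and act on the Pparg and Cebpa genes, after which PPARγ and C/EBPα keep each other switched on and drive the mature fat cell genes. PPARα, strongest in liver, and PPARδ, present in most tissues, lead genes of fatty acid oxidation.

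The stretches before the starts of Pparg and Cebpa are shown because these were the 2 genes that rose under TBT, and because Pparg is read from several starts with unlike base composition and unlike marks. Each is the 250 bases before a RefSeq start on the plus strand of GRCm38.p6, for Pparg chr6:115360894-115361143, chr6:115362099-115362348 and chr6:115421816-115422065, and for Cebpa chr7:35119043-35119292. Capitals mark matches on either strand to AGGTCA (the repeat unit of sites bound by PPAR with RXR), TTGCNNAA (the core of a C/EBP site), TATAA (the box bound by the general factor TBP) and CCAAT.
Pparg start 1: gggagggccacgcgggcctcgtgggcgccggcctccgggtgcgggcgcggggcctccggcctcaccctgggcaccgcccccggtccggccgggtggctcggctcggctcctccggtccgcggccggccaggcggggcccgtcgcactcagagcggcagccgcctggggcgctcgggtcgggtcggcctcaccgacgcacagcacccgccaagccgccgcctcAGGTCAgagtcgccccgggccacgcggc
Pparg start 2: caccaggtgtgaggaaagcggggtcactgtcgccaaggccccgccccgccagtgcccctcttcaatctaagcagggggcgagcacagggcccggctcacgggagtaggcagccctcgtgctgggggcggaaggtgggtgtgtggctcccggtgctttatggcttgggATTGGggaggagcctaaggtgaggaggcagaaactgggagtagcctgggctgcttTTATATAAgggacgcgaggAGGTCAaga
Pparg start 3: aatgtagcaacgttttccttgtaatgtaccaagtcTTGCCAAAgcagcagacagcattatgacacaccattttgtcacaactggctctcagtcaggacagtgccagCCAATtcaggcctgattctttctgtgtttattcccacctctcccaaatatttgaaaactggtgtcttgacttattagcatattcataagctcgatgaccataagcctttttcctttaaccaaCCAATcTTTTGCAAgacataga
Cebpa start: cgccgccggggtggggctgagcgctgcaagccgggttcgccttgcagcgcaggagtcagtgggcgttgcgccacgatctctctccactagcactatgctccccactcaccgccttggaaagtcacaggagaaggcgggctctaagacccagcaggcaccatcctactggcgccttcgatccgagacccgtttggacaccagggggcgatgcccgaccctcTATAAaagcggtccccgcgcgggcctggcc

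The first Pparg stretch held 38 CpG dinucleotides, more than 98.1% of the 32841 stretches of that length before RefSeq gene starts, whose median was 6. The second held 12 and the third only 2. Before Cebpa there were 22, before Ppara 27, before Ppard 22 and before Cebpb 41. AGGTCA was found once before each of the first 2 Pparg starts, and TTGCNNAA was found 2 times before the third, the start known for the fat-cell isoform Pparg2. TATAA stood 30 to 26 bases before the Cebpa start, and near the second Pparg start it matched on both strands at overlapping positions. Of all stretches 14% held AGGTCA, 9.57% TTGCNNAA, 22.8% TATAA and 33.9% CCAAT. These matches describe the letters and are not evidence of binding. Sequences and starts of 5 of the 6 genes were matched in RefSeq.

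The RNA libraries held 3801758 to 5347365 gene counts each, so that 1 count equalled 0.188 to 0.265 CPM (counts scaled per-million gene counts). Marker genes of MSCs were present: 8 of 9 were tested, and their summed level was 1183 to 1430 CPM over all libraries, with Cd44, Cxcl12 and Pdgfrb highest and Lepr at most 17 counts per treatment. Markers of mature fat cells were near the limit of detection, with none of 6 past the low-count filter. Their summed level was 0 to 0.678 CPM in DMSO, 0 to 1.48 under ROSI, 0.683 to 2.48 under 4204 and 1.97 to 3.20 under TBT. Lep (leptin) had no count in any library and Adipoq (adiponectin) had 1 count, in DMSO. Cidec and Plin1, with 48 and 14 counts over the 6 TBT libraries, made up nearly all of the TBT sum, and Cfd (adipsin) had 5 counts in DMSO and 0 under TBT. Macrophage and blood cell markers summed to 45.8 to 68.8 CPM, most of it Cd14 (group means of 41.1 to 49.7 CPM), with Adgre1 and Elane at 0 and Ptprc, Itgam, Lyz2 and Mpo at no more than 6 counts per treatment. Endothelial markers summed to 1.51 to 8.94 CPM. Osteoblast markers summed to 136 to 163 CPM, almost all of it Runx2 (group means of 143 to 151 CPM), while Bglap, Sp7 and Ibsp had at most 7 counts per treatment.

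Pparg and Cebpa rose under TBT and under 4204, Cebpd rose slightly under 4204, and Pparg fell slightly under ROSI. Ppard and Cebpb did not pass the test in any comparison with DMSO, and Ppara was barely detected. By edgeR's quasi-likelihood test, 2 of the 5 genes tested rose under TBT, against a background of 15% of all genes higher and 28.9% called in either direction. Under 4204 it was 3 of 5, all higher, against 12.8% higher and 24.1% in either direction. Under ROSI it was 1 of 5, lower, against 0.423% lower and 1.04% in either direction. These comparisons share the same 6 DMSO libraries. In bulk RNA, fewer cells that express a gene and less RNA per cell cannot be told apart.

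**Figure D1:**
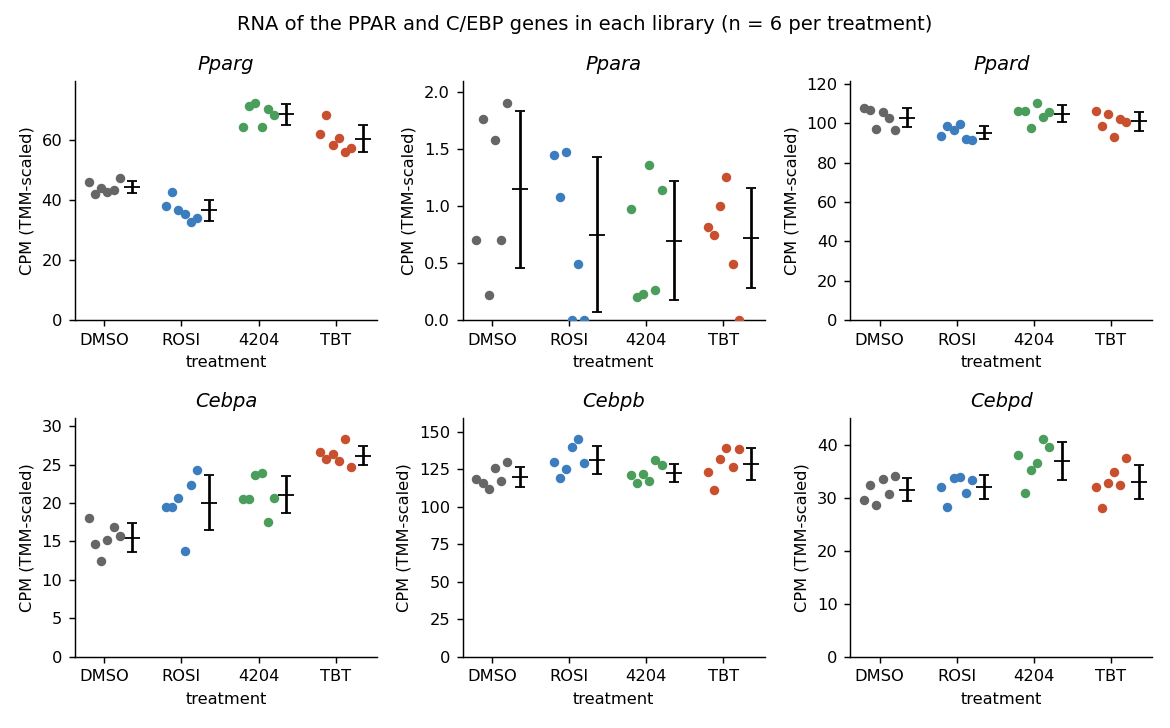
RNA level of each gene (CPM, linear axis from 0) in each of the 24 libraries by treatment. Points are libraries, and the bar beside each group is the mean with its SD (n = 6). Pparg is highest under 4204 and TBT, where all 12 libraries lie above all DMSO and ROSI libraries, Cebpa is highest under TBT, and the Ppara axis ends near 2 CPM.

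Pparg encodes the receptor without which fat cells do not form. Its lowest, median and highest levels were 42.1, 43.7 and 47.3 CPM in DMSO, 32.7, 36.1 and 42.6 CPM under ROSI, 64.2, 69.5 and 72.5 CPM under 4204, and 56.0, 59.6 and 68.4 CPM under TBT. Every TBT and 4204 library lay above every DMSO library, whereas the highest ROSI library reached the lower end of DMSO. Groups with all treated libraries above all DMSO libraries were seen for 6.73% of genes under TBT and 6.9% under 4204. Pparg was 1.37-fold higher under TBT (log2 difference 0.46 ± 0.06 SE, edgeR adjusted p = 4.4e-07) and 1.55-fold higher under 4204 (0.63 ± 0.06, edgeR adjusted p = 3.5e-10). Under ROSI, the ligand of the receptor it encodes, its log2 difference from DMSO was -0.27 ± 0.07 (edgeR adjusted p = 0.0356). The ROSI call was lost when libraries were scaled by spike-in RNA (log2 difference -0.31, adjusted p = 0.53) and when low genes were kept (adjusted p = 0.0568).

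Placed in order, Pparg RNA went from ROSI (36.6 ± 3.49 CPM, mean ± SD, n = 6) over DMSO (44.3 ± 2.02 CPM) and TBT (60.5 ± 4.47 CPM) to 4204 (68.6 ± 3.61 CPM). The last 2 overlapped and did not pass the test: TBT against 4204 was -0.18 on the log2 scale (95% interval -0.30 to -0.05, unadjusted p = 0.00582, edgeR adjusted p = 0.202). TBT and 4204 both stood clear of ROSI, as did 6.78% and 6.59% of all genes. The log2 difference was 0.73 ± 0.07 for TBT against ROSI (edgeR adjusted p = 5.14e-11) and 0.90 ± 0.06 for 4204 against ROSI (edgeR adjusted p = 1.09e-13), the latter 1.87-fold. The counts are per gene, so they do not separate the Pparg isoforms.

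Cebpa encodes C/EBPα, the partner that sustains PPARγ in fat cells. It ran at 12.5, 15.4 and 18.01 CPM in DMSO (lowest, median and highest), 13.7, 20.1 and 24.3 CPM under ROSI, 17.5, 20.6 and 23.9 CPM under 4204, and 24.6, 26.0 and 28.3 CPM under TBT. The TBT libraries lay above all 18 others. TBT raised Cebpa 1.69-fold over DMSO (log2 difference 0.76 ± 0.11 SE, edgeR adjusted p = 6.29e-07), the largest log2 difference under TBT among the 5 tested genes. Under 4204 it rose by 0.45 ± 0.11 on the log2 scale (edgeR adjusted p = 0.00212), with 1 library in the range of DMSO. Under ROSI the difference of 0.37 (95% interval 0.14 to 0.60) did not pass the test (edgeR adjusted p = 0.109).

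Means for Cebpa ran in the order DMSO (15.5 ± 1.91 CPM, SD, n = 6), ROSI (20.02 ± 3.58 CPM), 4204 (21.1 ± 2.37 CPM) and TBT (26.2 ± 1.24 CPM). No step between neighbours passed the test. For 4204 against ROSI the log2 difference was 0.08 (95% interval -0.14 to 0.30, edgeR adjusted p = 0.647). For TBT against 4204 it was 0.31 (0.10 to 0.52, unadjusted p = 0.00515, edgeR adjusted p = 0.194) although the groups did not overlap, a pattern seen upward for 0.423% of genes. TBT exceeded ROSI by 0.39 ± 0.10 (edgeR adjusted p = 0.00433), again without overlap. The summed fat cell markers, which rest on Cidec and Plin1 as given above, had their highest levels under TBT as well, and their part in the Pparg and Cebpa differences was not tested.

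Cebpb and Cebpd encode the factors that act first in fat cell formation, and both were already expressed in the solvent. Cebpb ranged from 112 over a median of 118 to 130 CPM in DMSO, from 119 over 129 to 145 CPM under ROSI, from 116 over 122 to 131 CPM under 4204 and from 111 over 129 to 139 CPM under TBT. All 4 groups overlapped, and no comparison passed the test. The log2 difference from DMSO was 0.09 under TBT (95% interval -0.01 to 0.20, edgeR adjusted p = 0.189), 0.03 under 4204 (-0.08 to 0.14, edgeR adjusted p = 0.72) and 0.13 under ROSI (0.02 to 0.24, edgeR adjusted p = 0.3).

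Cebpd had a lowest, median and highest level of 28.8, 31.7 and 34.2 CPM in DMSO, 28.3, 32.8 and 34.0 CPM under ROSI, 30.9, 37.4 and 41.1 CPM under 4204, and 28.2, 32.7 and 37.6 CPM under TBT. All but 1 of the 4204 libraries lay above every DMSO library, and the other groups overlapped one another. The rise under 4204 was 1.16-fold (log2 difference 0.22 ± 0.08 SE, edgeR adjusted p = 0.0379). It lost the call under spike-in scaling (adjusted p = 0.122), with low genes kept (0.103), in DESeq2 (0.0623) and with only these 2 groups in the fit (0.05). Under TBT the difference was 0.06 (95% interval -0.11 to 0.22, edgeR adjusted p = 0.653) and under ROSI 0.02 (-0.14 to 0.18, edgeR adjusted p = 0.956). Cebpd overlaps Spidr in the genome, and since no source used here says whether the counting was by strand, reads of the pair may not be separated.

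Per kilobase of gene, the scale on which levels of different genes can be set side by side, Cebpb was the highest of the 3 single-exon C/EBP genes under each treatment. In DMSO the levels were 78.9 ± 4.37 CPM per kb for Cebpb, 13.99 ± 0.969 for Cebpd and 5.88 ± 0.726 for Cebpa (SD, n = 6). Under TBT they were 84.6 ± 7.04, 14.6 ± 1.39 and 9.93 ± 0.472 CPM per kb, so Cebpa stayed lowest, and its highest TBT library (10.7 CPM per kb) did not reach the lowest Cebpd library (12.5 CPM per kb).

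Ppard encodes the PPAR of most tissues and was the PPAR gene with the most counts here. It ranged from 96.5 over a median of 104 to 108 CPM in DMSO, from 91.5 over 94.9 to 99.7 CPM under ROSI, from 97.4 over 106 to 110 CPM under 4204 and from 93.0 over 101 to 106 CPM under TBT. All groups overlapped. Log2 differences from DMSO were -0.02 under TBT (95% interval -0.12 to 0.07, edgeR adjusted p = 0.732), 0.03 under 4204 (-0.06 to 0.12, edgeR adjusted p = 0.692) and -0.11 under ROSI (-0.20 to -0.02, edgeR adjusted p = 0.322). Between compounds, 4204 was 0.14 ± 0.05 above ROSI (edgeR adjusted p = 0.0214), a call lost under spike-in scaling (0.143) and with low genes kept (0.0759).

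Ppara encodes the PPAR that liver relies on during fasting. It had 1 to 9 counts per library in DMSO, 0 to 6 under ROSI, 1 to 6 under 4204 and 0 to 5 under TBT, which summed to 32, 19, 18 and 19 counts over 6 libraries each. Kept in a fit without the low-count filter, Ppara differed from DMSO by -0.67 on the log2 scale under TBT (95% interval -1.75 to 0.42, edgeR adjusted p = 0.494), by -0.72 under 4204 (-1.81 to 0.37, edgeR adjusted p = 0.511) and by -0.63 under ROSI (-1.71 to 0.45, edgeR adjusted p = 0.69). These intervals hold both no difference and falls of more than 1 on the log2 scale.

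**Figure D2:**
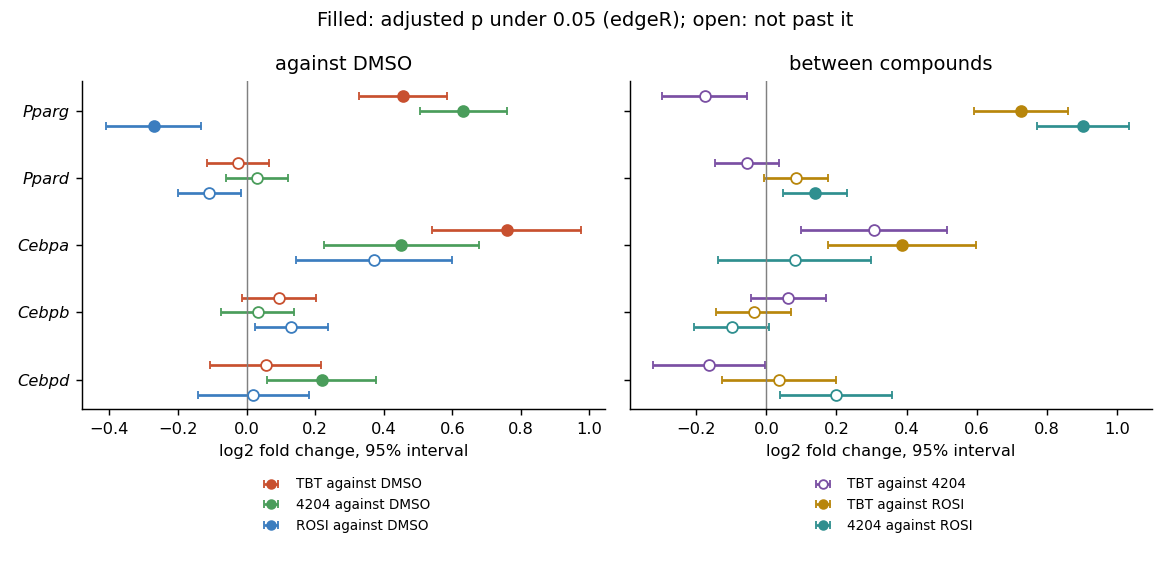
Log2 fold change of the 5 tested genes with the 95% interval, against DMSO (left) and between compounds (right). Filled points passed an edgeR adjusted p of 0.05. Pparg lies right of 0 for TBT and 4204 and left of it for ROSI, and every difference of Ppard and Cebpb from DMSO has an unfilled point.

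Between compounds, 2 of 5 genes were called for TBT against ROSI (Pparg and Cebpa), where 28.7% of all genes were called, and 2 of 5 for 4204 against ROSI (Pparg and Ppard), where 24.7% were. None of the 5 was called for TBT against 4204 in edgeR or in DESeq2, where 0.846% of all genes were called by edgeR. Of the 5, 3 (Pparg, Cebpa and Cebpd) had an unadjusted edgeR p under 0.05 there. By that p they ranked 360, 332 and 1210 among all 12529 genes, so many other genes passed it too. Cebpd was at -0.16 (95% interval -0.32 to -0.0031, edgeR adjusted p = 0.476). The TBT effect was also set against the sum of the 4204 and ROSI effects on the log2 scale, since TBT is known to bind both receptors. None of the 5 differed from the sum in edgeR or DESeq2, where 0.327% of all genes were called by edgeR. None had an unadjusted edgeR p under 0.05, and the lowest, that of Cebpd, ranked 2196 among all 12529 genes. The excess of TBT over the sum was 0.10 for Pparg (95% interval -0.09 to 0.28, edgeR adjusted p = 0.775) and -0.06 for Cebpa (-0.37 to 0.24, edgeR adjusted p = 0.919).

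Genes whose 3 log2 differences from the shared DMSO libraries were closest to those of a called gene were found by the root mean square of the 3 gaps, over 11360 genes. For Pparg they were Dbp (0.00985), Trim34a (0.0102) and Unc5c (0.0288), and 23 genes lay within 0.1. Dbp, for instance, had differences of 0.47 under TBT, 0.63 under 4204 and -0.27 under ROSI. For Cebpa they were Glb1l (0.0337), the pseudogene Plk-ps1 (0.0431) and Kbtbd3 (0.0436), with 22 genes within 0.1. For Cebpd, whose differences were small, 1470 genes lay within 0.1, led by Samhd1 (0.0138), Fam109a (0.0150) and Inafm1 (0.0161). Trim34a and Plk-ps1 have near-identical relatives, so their counts are uncertain.

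Genes known to be switched on by PPARγ in fat cells were mostly higher under TBT. Of 17 such genes 10 were tested, 8 rose under TBT, 6 under 4204 and 3 under ROSI, and none fell. Of all genes tested 15% were higher under TBT, 12.8% under 4204 and 0.615% under ROSI. The median log2 difference of the 10 was 0.58 under TBT, 0.62 under 4204 and 0.22 under ROSI, while the median of all genes lay between -0.01 and 0.00. Plin4, a lipid droplet coat protein gene, went from 38.1 ± 4.99 CPM in DMSO to 74.6 ± 5.99 CPM under ROSI, 218 ± 27.4 CPM under 4204 and 267 ± 16.9 CPM under TBT (SD, n = 6). Lpl, the lipase that frees fatty acids from circulating fat, went from 162 ± 4.83 CPM to 224 ± 6.27, 326 ± 18.2 and 374 ± 13.5 CPM in the same order. For both genes each of the 3 compounds passed the edgeR test (largest adjusted p = 2.85e-10), ROSI included, the compound under which Pparg itself was lower.

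Of 20 fatty acid oxidation genes known as PPARα and PPARδ targets 14 were tested, 13 rose under TBT, 12 under 4204 and 3 under ROSI, and none fell, beside the same shares of all genes (15%, 12.8% and 0.615% higher). Their median log2 difference was 0.43, 0.31 and 0.14. Pdk4, a kinase that spares glucose by blocking pyruvate oxidation, was at 52.7 ± 3.43 CPM in DMSO, 87.4 ± 4.404 CPM under ROSI, 134.9 ± 12.7 CPM under 4204 and 183 ± 5.22 CPM under TBT. Angptl4, a secreted inhibitor of lipoprotein lipase, was at 142 ± 6.84, 221 ± 8.43, 305 ± 11.8 and 329 ± 15.8 CPM. Of the 2 receptor genes themselves, Ppard passed no test against DMSO and Ppara had at most 9 counts per library.

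Few C/EBP targets could be read. Of 9 fat cell genes known as C/EBPα targets 4 were tested, and Fabp4 and Scd1 rose under TBT and 4204, with a median log2 difference of 0.29 and 0.32. Over all genes 15% were higher under TBT, 12.8% under 4204 and 0.615% under ROSI. Fabp4, a fatty acid carrier that is also on the PPARγ list, was at 2.24 ± 0.927 CPM in DMSO, 18.5 ± 2.48 CPM under ROSI, 21.5 ± 2.92 CPM under 4204 and 36.3 ± 4.61 CPM under TBT. It differed from DMSO by 4.00 ± 0.16 on the log2 scale under TBT (edgeR adjusted p = 1.07e-21), and alone among the 4 it was called under ROSI. Scd1, a fatty acid desaturase, rose by 0.46 ± 0.03 under TBT (edgeR adjusted p = 1.1e-13) and differed by -0.04 ± 0.03 under ROSI (edgeR adjusted p = 0.711). Of the 8 acute-phase genes known as C/EBPβ and C/EBPδ targets 4 were tested and 1 was called under TBT, a share no higher than the 28.9% of all genes called. It was C3, a complement component, which was lower under TBT (-1.02 ± 0.25, edgeR adjusted p = 0.00156). The median log2 difference of the 4 acute-phase genes under TBT was -0.09.

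On a list of other genes with a C/EBP symbol or linked to C/EBPs, 5 were tested. Under TBT 3 rose (Atf4, Cebpg and Ddit3) and 1 fell, and under 4204 1 rose and 1 fell. Of all genes 28.9% and 24.1% were called in either direction. Ddit3, whose product CHOP pairs with C/EBPs and keeps them from their usual sites, rose by 0.37 ± 0.06 under TBT (edgeR adjusted p = 1.58e-05). Cebpz, which is on the list by its symbol only, fell by 0.38 on the log2 scale under TBT (SE 0.05, edgeR adjusted p = 1.04e-07). None was called under ROSI in edgeR, where 1.04% of all genes were.

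Of 13 activators of the cascade tested 6 rose and 2 fell under TBT, and likewise 6 and 2 under 4204. Under ROSI Ebf2 rose and Klf4 and Klf9 fell, whereas Klf9 was among those that rose under TBT and 4204. Over all genes 15% were higher and 13.9% lower under TBT, 12.8% and 11.3% under 4204, and 0.615% and 0.423% under ROSI. The share of activators that fell under TBT and under 4204 was near the background. The median of the 13 log2 difference was 0.24 under TBT, 0.25 under 4204 and 0.00 under ROSI. Ebf2, a factor of fat cell precursors, went from 12.6 ± 2.05 CPM in DMSO to 18.2 ± 2.63 under ROSI, 34.5 ± 4.52 under 4204 and 38.7 ± 6.13 under TBT. Stat5a, a mediator of growth hormone and prolactin signals, was 0.92 ± 0.07 higher under TBT on the log2 scale (edgeR adjusted p = 1.62e-12). Klf5, which acts between C/EBPβ and Pparg, was among those that fell under TBT and 4204.

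Of 13 inhibitors of the cascade tested 5 rose and 4 fell under TBT, with a median log2 difference of 0.03, and 5 rose and 3 fell under 4204, beside 15% of all genes higher and 13.9% lower under TBT and 12.8% and 11.3% under 4204. Id1, which blocks helix-loop-helix factors, rose by 0.43 ± 0.06 (edgeR adjusted p = 8.67e-08) and Klf2 by 0.36 ± 0.05 (edgeR adjusted p = 8.89e-07) under TBT. Dlk1, the preadipocyte factor that falls as fat cells form, was among those that fell. Of 14 heterodimer partners and cofactors of the PPARs, 2 rose (Ncoa1 by 0.34 ± 0.09 and Prdm16, a factor of brown fat, by 0.66 ± 0.19) and Crebbp fell under TBT, a share no higher than the 28.9% of all genes called. No partner or cofactor was called in edgeR under 4204, where 24.1% of all genes were, or under ROSI, where 1.04% were.

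**Figure D3:**
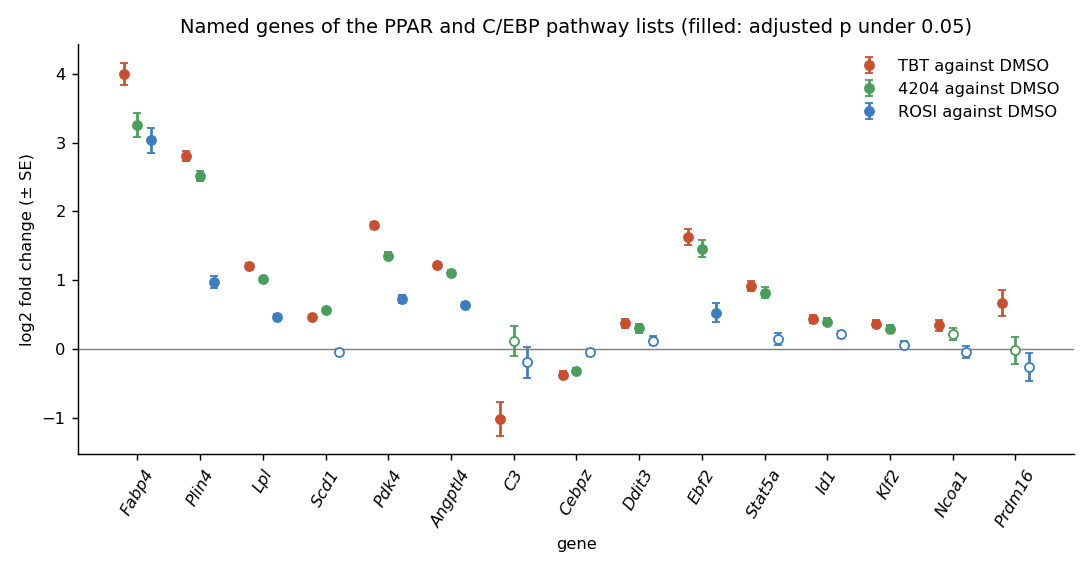
Log2 fold change against DMSO (± SE) of the genes named from the pathway lists, by compound, filled where the edgeR adjusted p was under 0.05. Fabp4 and Plin4 lie highest for TBT and 4204, and C3 and Cebpz lie below 0 for TBT.

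The deposited island lists give, for each ChIP library, stretches enriched over input with their read counts. H3K4me3 libraries held 18728 to 24735 islands and H3K27me3 libraries 17081 to 34013, which covered 70.5 to 87.5 Mb and 106 to 177 Mb. Both the read counts and the folds over input are the authors' values, and the folds are used only to describe islands.

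All 6 genes carried an H3K4me3 island over their start in all 8 libraries. An island somewhere in the gene or 5 kb either side was found in all 8 libraries for 62.6% of 21631 genes. H3K27me3 divided the 6 genes. Over the Ppara start it was present in 4 of 4 DMSO and 4 of 4 TBT libraries, over the Cebpa start in 3 of 4 and 4 of 4, over the first Pparg starts in 1 of 4 and 1 of 4, and over the Ppard start in 0 of 4 and 1 of 4. Cebpb and Cebpd had none within 5 kb in any library, as had 31.4% of genes, while 13.9% of genes had one in all 8. The 2 marks were read from bulk cells, so islands of both at a gene do not show both on the same DNA.

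**Figure D4:**
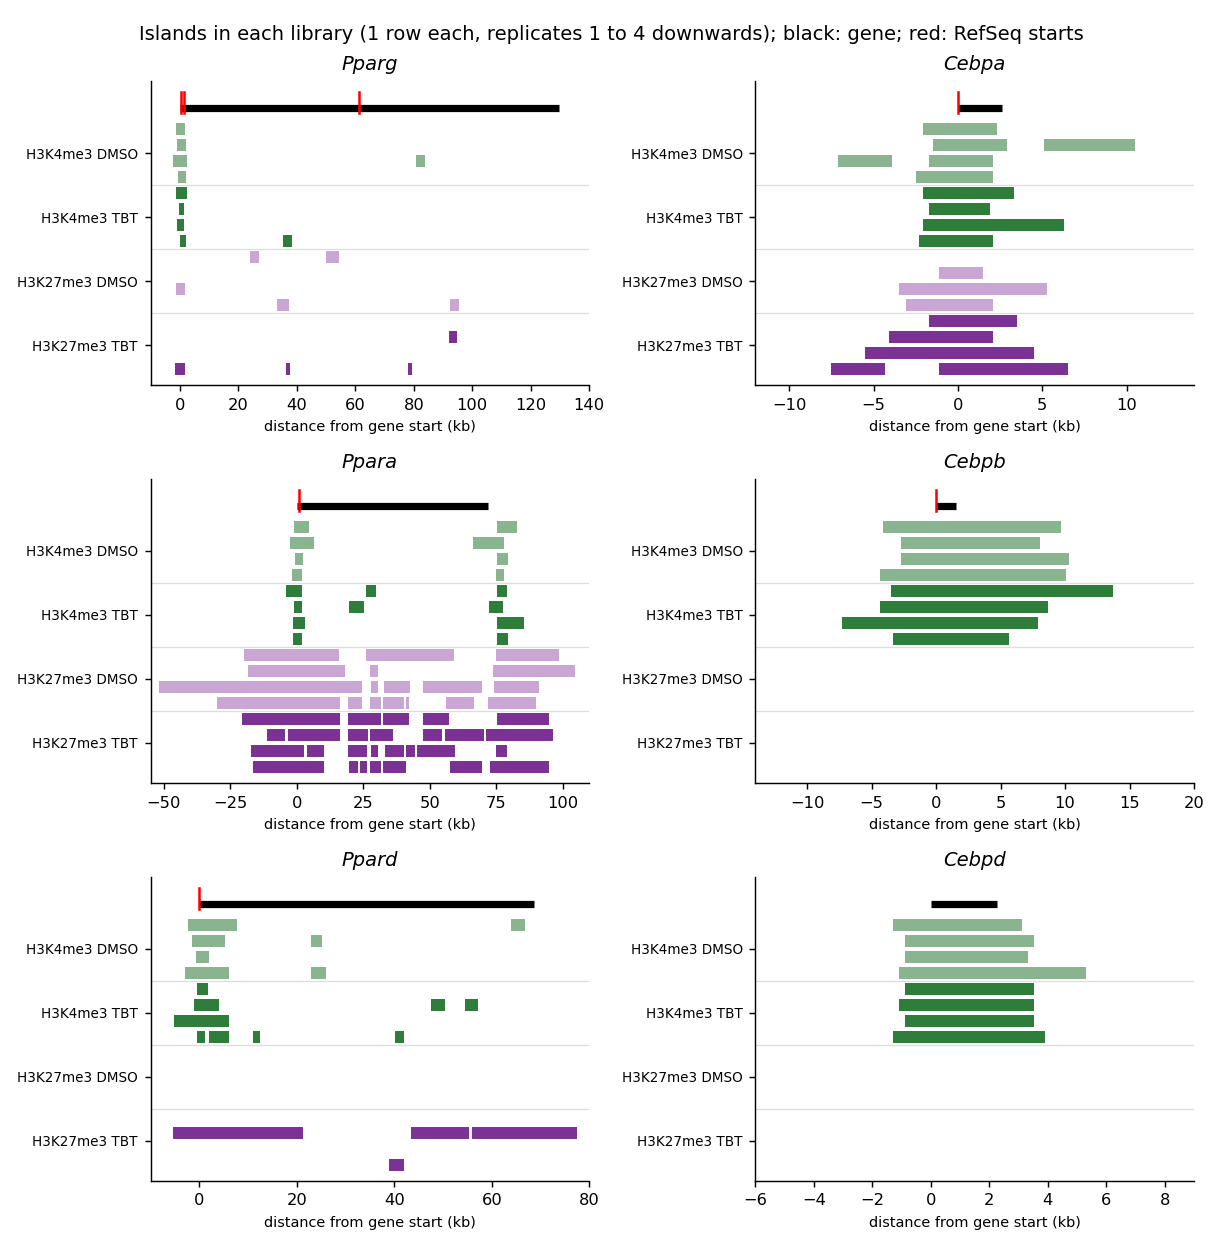
Islands of H3K4me3 (green) and H3K27me3 (purple) in each of the 4 DMSO (pale) and 4 TBT (dark) libraries around each gene, as distance from the gene start in kb, with the gene in black and RefSeq starts in red. H3K4me3 sits over every gene start except the third Pparg start, and broad H3K27me3 islands cover Ppara.

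At Pparg (chr6:115360879-115490404), the H3K4me3 island lay over the first 2 starts, spanned 2.8 to 5.0 kb in DMSO and 1.8 to 3.8 kb under TBT, and had a fold over input of 4.72 to 12.8 and 6.42 to 11.9. The third start, with 2 CpG in its stretch, had no island of either mark in any library. The nearest H3K4me3 island began 19535 bases downstream of that start and the nearest H3K27me3 island ended 6866 bases upstream, each in 1 DMSO library. ChIP reads scaled per-million island reads (RPM) in the gene and 5 kb either side were 76.7, 78.3, 76.0 and 80.4 in the DMSO libraries and 76.5, 71.2, 81.2 and 83.0 in the TBT libraries (replicates 1 to 4). The 2 groups overlapped with almost equal means of 77.9 ± 1.94 and 78.0 ± 5.27 (SD, n = 4; exact two-sided permutation test, p = 1). In the test of merged regions Pparg differed by 0.01 on the log2 scale (95% interval -0.13 to 0.14, edgeR adjusted p = 0.989). With the covered length as an offset, which compares reads per covered base, the region differed by 0.50 on the log2 scale (edgeR adjusted p = 0.999), so the size of the difference depended on whether the shorter TBT islands were taken into account, and it passed no test either way.

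At Cebpa (chr7:35119293-35121928), mean H3K4me3 was higher under TBT but did not pass the test across all regions. The values were 111, 131, 114 and 117 in DMSO and 123, 128, 134 and 128 RPM under TBT (gene and 5 kb either side). One DMSO library lay within the TBT range (118 ± 9.06 against 128 ± 4.52, SD, n = 4; exact two-sided permutation p = 0.114, smallest possible 0.0286). With 2 kb either side, which leaves out outlying islands of 2 DMSO libraries, the values were 111, 113, 103 and 117 against 123, 128, 134 and 128 and no longer overlapped (exact permutation p = 0.0286). A rise of that kind was seen for 2.04% of genes with that window. Leaving out DMSO replicate 2, the DMSO library within the TBT range, gave an exact permutation p of 0.0286 in the 5 kb window. That was the only 1 of 8 such fits under 0.05. Dropping the overlapping library separates the groups by itself, so this fit adds no support. The merged region of 13 kb differed by 0.15 on the log2 scale (95% interval 0.01 to 0.28, unadjusted p = 0.0333, edgeR adjusted p = 0.547).

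H3K27me3 at Cebpa was a short island, 2.6 to 8.8 kb over the start in DMSO and 5.2 to 10.0 kb under TBT, with 1.38 to 1.85 times the input reads. In the gene and 5 kb either side the values were 0, 28.9, 57.0 and 38.8 in DMSO and 34.3, 34.2, 50.4 and 56.2 RPM under TBT. The groups overlapped (exact permutation p = 0.457), and the merged region differed by 0.07 (95% interval -0.85 to 0.99, edgeR adjusted p = 0.987). Cebpa RNA rose under TBT with its H3K27me3 islands present in all 4 TBT libraries.

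Ppara (chr15:85734910-85806851), the gene with almost no RNA, had the broadest H3K27me3. The island over its start spanned 35.8 to 76.4 kb in DMSO and 19.4 to 36.8 kb under TBT, and 2 merged regions of 122 and 53.8 kb reached across and past the gene. That start island was broad but weak, with a fold over input of 1.17 to 1.42 in DMSO and 1.32 to 1.68 under TBT. At the Cebpa start the fold was 1.38 to 1.85 and 1.49 to 1.78. The RPM values sum reads over all islands of a gene and are not divided by length. With 5 kb either side the gene held 727, 602, 855 and 581 RPM in DMSO and 596, 549, 394 and 486 RPM under TBT. The highest TBT library lay above the lowest DMSO library (691 ± 127 against 506 ± 87.3, SD, n = 4; exact permutation p = 0.0571), while the covered length was 51.7 ± 16.1 kb against 54.8 ± 6.14 kb (exact permutation p = 0.857). With 2 kb either side the groups did not overlap, at 539, 602, 731 and 581 against 468, 503, 375 and 486 (exact permutation p = 0.0286), as for 1.01% of genes with lower values under TBT.

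Whole islands are counted in these sums, and all islands of a TBT library together covered 155 to 177 Mb against 106 to 167 Mb in DMSO. The part of that difference in the Ppara value was not tested. By merged region Ppara differed by -0.25 (95% interval -0.70 to 0.21, edgeR adjusted p = 0.873) and -0.40 (-1.21 to 0.41, edgeR adjusted p = 0.896). Leaving out 1 library moved these to between -0.36 (DMSO replicate 2) and -0.029 (DMSO replicate 3) and to between -0.84 (TBT replicate 2) and -0.17 (DMSO replicate 2), and stricter islands gave -0.68 for the first, none of them past the test. H3K4me3 at Ppara was 153, 193, 146 and 165 RPM in DMSO and 165, 170, 171 and 152 under TBT, which overlapped (exact permutation p = 1), and part of it belongs to a second region that also covers the neighbouring gene Cdpf1.

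Ppard, Cebpb and Cebpd carried H3K4me3 and little or no H3K27me3. Cebpb (chr2:167688915-167690432), a gene of 1518 bases, lay inside an island of 9.0 to 17.2 kb with the highest H3K4me3 reads of the 6 genes, 237 ± 7.08 RPM in DMSO and 243 ± 10.8 under TBT (SD, n = 4; exact permutation p = 0.314). Part of that island reaches A530013C23Rik beside it, and these reads are not divided by island length. Cebpd (chr16:15887286-15889545) had 86.5 ± 3.50 against 93.6 ± 5.94 RPM (exact permutation p = 0.114). Of 8 fits without 1 library, only 1 was under 0.05 (exact permutation p = 0.0286). It left out TBT replicate 1, the TBT library within the DMSO range, which separates the groups by itself, so this fit adds no support. Ppard (chr17:28232754-28301469) had 86.7 ± 16.1 against 81.4 ± 16.0 (exact permutation p = 0.457). One TBT library (replicate 2) had broad H3K27me3 at Ppard, 341 RPM, where TBT replicate 4 had 17.5 RPM and the other 6 libraries had no island. None of the 6 genes passed an unadjusted p of 0.05 with 5 kb either side, whereas among all genes with an island 2.01% were higher and 1.65% lower under TBT at that threshold for H3K4me3 reads, and 2.06% higher and 0.93% lower for H3K27me3 reads.

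**Figure D5:**
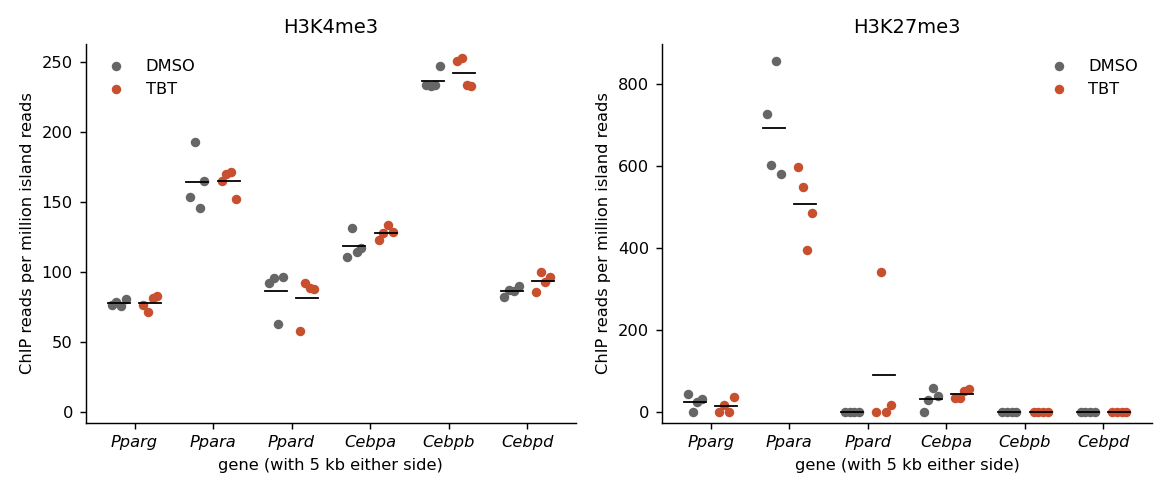
ChIP reads scaled per-million island reads (RPM) in each gene with 5 kb either side, for H3K4me3 (left) and H3K27me3 (right). Points are the 4 libraries per treatment and bars their means. DMSO and TBT libraries overlap for H3K4me3 at every gene. The H3K27me3 sum, not divided by length, is largest at Ppara, where most TBT libraries lie below the DMSO libraries. It is also large in 1 TBT library at Ppard.

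Across all H3K4me3 regions with an island in every library, edgeR called 21 of 12813 (0.164%) between TBT and DMSO, and none of the 7 regions at these genes. One of the 7, at Cebpa, had an unadjusted edgeR p under 0.05, as had 1048 of the 12813 regions. DESeq2 called none of the 7. Of 2882 H3K27me3 regions edgeR called 0 (0%), with 176 at an unadjusted p under 0.05 and 26 called by DESeq2, and none of the 3 regions at these genes was among either. The authors' deposited tables of differential peaks list 246 for H3K4me3 and 4329 for H3K27me3, and none lies within 5 kb of the 6 genes. The nearest in the authors' deposited table is an H3K27me3 peak 11.7 kb from Cebpa.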

How the data were processed

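The authors deposited raw read counts per gene symbol for 24 RNA libraries, and ChIP read counts per island for 16 ChIP libraries. Per the submitters' processing notes STAR, SAMtools, FastQC, DESeq2, SICER and DiffBind were used (versions not given) with builds GRCm38 and mm10. The libraries were strand-specific per the labels, but the sources used here name neither the counting program nor its strand setting. The count table also holds 92 ERCC spike-ins and 5 lines that collect reads without a single gene (22.9% to 26.2% of counts), both left out of library sizes and tests, and no column of it was left unused. Islands were called per library against the input (window 200 bp, gap 600 bp, FDR 0.001, as the deposited lists are named). The island lists give the authors' p-value and FDR, and a fold (ratio) of ChIP over input reads scaled to library size. The deposited differential peak tables give log2 concentrations and a log2 fold, and were used here only for peak positions.

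Counts were tested in R 4.3.3 by the quasi-likelihood F test of edgeR 4.0.16, after filterByExpr and TMM scaling, in 1 fit of 24 libraries with treatment as the only term. P-values were adjusted over all 12529 genes by Benjamini-Hochberg, with 0.05 as the threshold. CPM are TMM-scaled. The biological coefficient of variation was 5.24%. ChIP islands of the 8 libraries of a mark were merged where they overlapped, and regions with an island in every library were tested likewise, with a coefficient of 9.75% for H3K4me3 and 34.2% for H3K27me3. Reads per gene window were compared by exact two-sided permutation tests over 70 arrangements, unadjusted. The edgeR tests of genes and of merged regions were tried on simulated data, and the permutation tests of gene windows were not. Alternatives were DESeq2 1.42.0, its size factors, spike-in scaling, no low-count filter, the replicate number as a block, only the groups compared, covered length as an offset, total island reads, stricter islands (FDR of at most 1e-10), islands merged up to 2 kb apart, 2 kb windows, and each ChIP library left out.

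Within each group every pair of RNA libraries differed by more than sampling noise. No clear pairing of the samples by replicate number was found, but a weak pairing was not excluded for the RNA or the ChIP libraries. Gene coordinates, starts and sequences are RefSeq's on GRCm38.p6. Named genes were the 6 genes, the first 2 genes by adjusted p of each list among those called under TBT, and the 3 genes closest to each called gene with a mean log2 CPM not below 1. Atf4, Cebpg, Klf4, Klf5, Klf9, Dlk1 and Crebbp were named besides, after their values were seen. The 6 genes, the lists and the tests were chosen with earlier results of these data known.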

Additional observations from a re-analysis of the deposited data

Results flagged for a closer look

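Of 63 groups of libraries looked at for these genes, 5 held 1 library far from the others of its group, and chance alone gives about 1 such group in 20. At Ppard, H3K4me3 was lowest in DMSO replicate 3, at 62.7 RPM (reads scaled per-million island reads) against 92.3 to 96.4 in the other 3, and lowest among TBT libraries in replicate 1, at 57.5 against 88.0 to 91.9. In both libraries a short island at the start was the only one in the gene. H3K27me3 at Ppard was 341 RPM in TBT replicate 2 and 0 to 17.5 in the other TBT libraries. At Cebpb, DMSO replicate 4 had 248 RPM of H3K4me3 and the other DMSO libraries 233 to 234. The H3K27me3 region downstream of Ppara, from base 85806201 of chromosome 15, had 715 CPM in TBT replicate 2 and 254 to 318 CPM in the other TBT libraries. The same TBT library, replicate 2 of H3K27me3, thus stood apart at Ppard and downstream of Ppara.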

How the results depend on the processing

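The rises of Pparg and Cebpa under TBT and 4204, and their excess under TBT over ROSI, kept direction and call under all 6 alternatives run (Pparg under TBT 0.45 to 0.55, Cebpa under TBT 0.76 to 0.85, Pparg under 4204 0.63 to 0.64, Cebpa under 4204 0.45 to 0.47). The cause of the changes below was not tested. Under ROSI the count of called genes among the 6 fell from 1 to 0, and for 4204 against ROSI from 2 to 1, both with spike-in scaling and with no low-count filter. Spike-in scaling moved the median of all genes by more than 0.1 for TBT against ROSI (to 0.127) and against the sum (to 0.113), and reversed values that had passed no test: Ppard under TBT (0.064), Cebpd under ROSI (-0.023), Ppard for TBT against 4204 (0.023), Cebpb for TBT against ROSI (0.087), and Cebpa (0.049) and Cebpb (0.045) against the sum.

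Counts over all genes moved with spike-in scaling from 3623 to 2095 (TBT), 3014 to 1208 (4204), 130 to 33 (ROSI), 106 to 20 (TBT against 4204), 3097 to 1346 (4204 against ROSI) and 41 to 2 (sum). The share called higher went from 51.8% to 86% (TBT), 53.1% to 75.2% (4204), 48.1% to 65% (TBT against 4204), 53% to 93.4% (TBT against ROSI), 54.8% to 86.3% (4204 against ROSI) and 41.5% to 0% (sum). With no low-count filter 199 genes were called under ROSI and 65 for the sum, and with only the 2 groups fitted 236 under ROSI and 65 for TBT against 4204.

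No clear pairing of the RNA libraries by replicate number was found. Of 36 same-number pairs 2 had a correlation of their deviations over 0.1, and 6 of 24 libraries correlated best with their own number. The median correlation was 0.0224 for same-number pairs and -0.00581 for other pairs, so a weak pairing was not excluded. With the replicate block 223 genes were called under ROSI and 169 for TBT against 4204, and Cebpd for 4204 against ROSI passed (0.20, adjusted p = 0.0426, against 0.0632 without it). For each mark 0 of 4 pairs had a correlation over 0.1, 5 of 8 libraries were closest to their own number, and the block gave 27 H3K4me3 regions and 0 H3K27me3 regions. Replicate 1 had the most island reads in DMSO and in TBT for each mark. A pairing of the ChIP libraries was thus not excluded, and the permutation tests took none into account.

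H3K4me3 regions called went from 21 to 136 with DESeq2, to 0 with covered length as an offset and to between 5 and 10 without 1 library. H3K27me3 regions went from 0 to 26 with DESeq2. No region of the 6 genes was called in any of these. Log2 differences of regions that had passed no test reversed with the offset at Ppara (0.13 and 0.011), Ppard (0.17) and for H3K27me3 at Cebpa (-0.41), the offset moved Pparg from 0.01 to 0.50, and values reversed with wider merging at Ppara (0.081) and for H3K27me3 at Cebpa (-0.17). Without 1 library they ranged from -0.080 to 0.090 (Ppara, second region), -0.031 to 0.035 (Pparg), -0.19 to 0.020 (Ppard), -0.00097 to 0.040 (Cebpb) and -0.18 to 0.44 (H3K27me3, Cebpa).

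In the gene windows, 2 kb either side reversed Ppara H3K4me3 reads (-3.84 RPM) and Cebpd covered length (0.0638 kb). Without 1 library, H3K4me3 RPM differences ranged from -1.56 to 2.36 (Pparg), -5.89 to 9.97 (Ppara) and -13.3 to 2.67 (Ppard), and covered kb from -1.68 to 0.283 (Pparg), -1.93 to 3.07 (Ppara), -3.05 to 1.12 (Ppard), -0.742 to 0.858 (Cebpa), -0.0273 to 0.812 (Cebpb), -0.417 to 0.317 (Cebpd) and, for H3K27me3 at Ppara, -4.48 to 8.18. H3K27me3 reads at Ppara differed by -222 RPM (exact permutation p = 0.0286) without DMSO replicate 4, the DMSO library below the highest TBT library. That was the only 1 of 8 such fits under 0.05. Leaving out that library separates the groups by itself, so this fit adds no support. With 4 libraries a group the smallest possible p was 0.0286, and a library without an island has no deposited count there.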
